A study of Mus musculus with 20 samples.

Results

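Circadian clock genes were examined in the tumor transcriptomes. They were 10 genes listed by mouse symbol (Arntl, also called Bmal1, Clock, Npas2, Per2, Per3, Cry1, Cry2, Nr1d1, Dbp and Tef) and matched to the 35226 genes of the count table through their Ensembl identifiers. All 10 were found, and 9 of them were among the 16665 genes that passed the filter on low counts. RNA came from 20 tumors, 1 library each, of LLC1, a mouse Lewis lung carcinoma line, grown under the skin of male C57Bl6/J mice that were young adults and were kept in a cycle of light and dark. The 4 groups of 5 tumors came from mice given the vehicle, cisplatin (chemotherapy that crosslinks DNA), KW6002 (the adenosine receptor antagonist istradefylline), or both agents (cotreatment). All tumors came from the same implanted line, and each sample is a whole tumor with its host cells. The dosing schedule of these mice was not used here, and the hour of tumor collection was not given in the sources used here, so circadian time is unknown and each value is a single time point per mouse. The library codes in the labels fall into 2 runs of numbers, an earlier run (1 vehicle, 2 KW6002, 2 cisplatin and 3 cotreated tumors) and a later run (4, 3, 3 and 2).

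The molecular clock is a feedback loop of transcription that runs in nearly every mammalian cell. ARNTL pairs with CLOCK or NPAS2 (the positive arm) and binds E-boxes, DNA elements that drive the Per and Cry genes, Nr1d1 and the PAR bZIP factors Dbp, Tef and Hlf. PER and CRY proteins return to block ARNTL and CLOCK, and NR1D1 (REV-ERB alpha) represses Arntl through a retinoid orphan receptor element, so that in a population of cells with 1 shared phase Arntl peaks when Nr1d1 and Dbp are low. Glucocorticoids and several stress signals act on Per1 and Per2 directly and can reset clocks in peripheral tissue.

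Total counts ranged from 28.4 to 41 M reads per tumor. Of the markers of lung epithelium, Krt8 (95.2 to 215 CPM) and Krt18 (224 to 378 CPM) were present in all tumors, whereas Sftpc had at most 1 read and Epcam at most 5 reads in any tumor. CPM are counts per M reads with TMM scaling of the library sizes. In bulk tumor RNA, a change in the number of cells of a type and a change in RNA per cell cannot be told apart.

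In vehicle tumors, expression per kb of exon (RPKM, mean ± SD, n = 5) was highest for Tef (8.80 ± 1.56), followed by Cry1 (7.63 ± 0.220), Cry2 (7.53 ± 0.633), Nr1d1 (5.21 ± 0.635), Clock (5.05 ± 0.512) and Arntl (4.47 ± 0.595). Dbp (1.89 ± 0.381), Per3 (1.55 ± 0.155) and Per2 (1.52 ± 0.345) followed, and Npas2 was last at 0.0256 ± 0.0140. The ranges of mean ± SD of neighbors in this order overlapped, except for Cry2 above Nr1d1, Arntl above Dbp and Per2 above Npas2. In cotreated tumors Per2 (7.56 ± 1.28) stood above Arntl (5.97 ± 1.22), Clock (5.54 ± 0.715) and Nr1d1 (3.71 ± 0.755). Per2 was thus the member whose place in the order moved most.

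Promoter windows of RefSeq genes (GRCm38.p6, 250 bases before to 50 after the start) were searched on both strands for the E-box CACGTG, its variant CACGTT, the D-box letters TTATGTAA and TTACGTAA, to which the PAR bZIP factors bind, and TAGGTCA, the core of the element that NR1D1 and the ROR receptors share. Windows were found for 9 of the 10 members (13 windows), and Per2 was not among them, so its promoter was not searched. The windows given here belong to members on which the results turn, and capitals mark the matches. They are Cry1 (chr10:85185005-85185304, minus strand, with CACGTG 60 bases and CACGTT, read here as its complement AACGTG, 79 bases before the start), the 2 windows of Tef (chr15:81802423-81802722 and chr15:81811164-81811463, plus strand, each with CACGTG), Per3 (chr4:151044616-151044915, minus strand, with TTATGTAA 2 times) and the second Arntl window (chr7:113207261-113207560, plus strand, with TAGGTCA 30 bases after the start).
Cry1: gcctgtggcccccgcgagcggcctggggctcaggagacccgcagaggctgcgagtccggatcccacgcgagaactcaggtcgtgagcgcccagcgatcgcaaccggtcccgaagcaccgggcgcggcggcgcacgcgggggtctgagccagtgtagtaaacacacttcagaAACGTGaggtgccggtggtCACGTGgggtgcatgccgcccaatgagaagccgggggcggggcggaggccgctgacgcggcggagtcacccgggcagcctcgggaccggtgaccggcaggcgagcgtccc
Tef, first window: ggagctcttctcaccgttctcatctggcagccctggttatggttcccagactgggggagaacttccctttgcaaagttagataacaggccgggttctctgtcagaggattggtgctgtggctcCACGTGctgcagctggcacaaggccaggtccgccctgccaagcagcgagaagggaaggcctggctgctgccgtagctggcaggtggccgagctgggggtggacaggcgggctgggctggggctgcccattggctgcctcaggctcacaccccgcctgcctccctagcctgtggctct
Tef, second window: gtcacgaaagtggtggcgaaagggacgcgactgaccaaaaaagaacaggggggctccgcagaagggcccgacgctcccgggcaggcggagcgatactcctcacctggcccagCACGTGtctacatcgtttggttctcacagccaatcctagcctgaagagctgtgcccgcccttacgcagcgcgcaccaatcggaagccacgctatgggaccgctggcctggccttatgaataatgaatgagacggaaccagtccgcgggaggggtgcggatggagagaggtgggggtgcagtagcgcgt
Per3: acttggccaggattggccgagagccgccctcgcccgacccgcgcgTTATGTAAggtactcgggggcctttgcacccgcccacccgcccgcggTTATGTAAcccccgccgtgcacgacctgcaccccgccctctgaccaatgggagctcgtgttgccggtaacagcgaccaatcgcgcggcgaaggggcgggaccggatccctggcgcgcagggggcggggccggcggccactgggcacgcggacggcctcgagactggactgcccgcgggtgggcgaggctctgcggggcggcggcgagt
Arntl: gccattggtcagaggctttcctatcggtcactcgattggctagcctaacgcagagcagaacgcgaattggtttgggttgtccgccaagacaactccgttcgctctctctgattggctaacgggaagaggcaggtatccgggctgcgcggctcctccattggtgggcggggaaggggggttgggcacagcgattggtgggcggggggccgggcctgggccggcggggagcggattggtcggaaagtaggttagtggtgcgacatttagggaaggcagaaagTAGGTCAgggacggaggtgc
The matches in these windows do not overlap. Of all 32851 windows of this length, 7.15% hold CACGTG, 4.68% CACGTT, 0.938% TTATGTAA, 0.119% TTACGTAA and 2.61% TAGGTCA. Cry2 and Nr1d1 hold CACGTT, and the windows of Clock, Npas2 and Dbp hold none of these letters. A match describes the sequence and shows neither binding nor a cause of the changes below.

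To ask which clock genes changed under treatment, each group was compared with vehicle across all genes tested. Cisplatin raised Per2, Cry1, Cry2, Dbp and Tef, and cotreatment raised the same 5 and Arntl, while Clock, Per3 and Nr1d1 did not pass the test in either comparison. A gene was called at an adjusted P under 0.05 and an absolute log2 fold change of at least 0.32 (edgeR quasi-likelihood test, Benjamini-Hochberg adjustment over 16665 genes). By this rule 5 of the 9 members tested were higher after cisplatin, where 10.6% of all genes were called (6.01% higher), and 6 were higher after cotreatment, where 23.5% were called (13.1% higher). None was lower in either, against 4.57% and 10.4% of all genes. The median log2 fold change of the members was 0.43 after cisplatin and 0.54 after cotreatment, and that of all genes tested was 0.00 and -0.02. Values of the 5 cisplatin tumors did not overlap those of vehicle in 5 members (10.4% of all genes), nor did cotreated tumors in 4 (24.7%). Both comparisons share the vehicle tumors. Nothing in the sources says that tumors of a group came from separate experiments, so these P values measure the spread among these tumors.

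**Figure D1:**
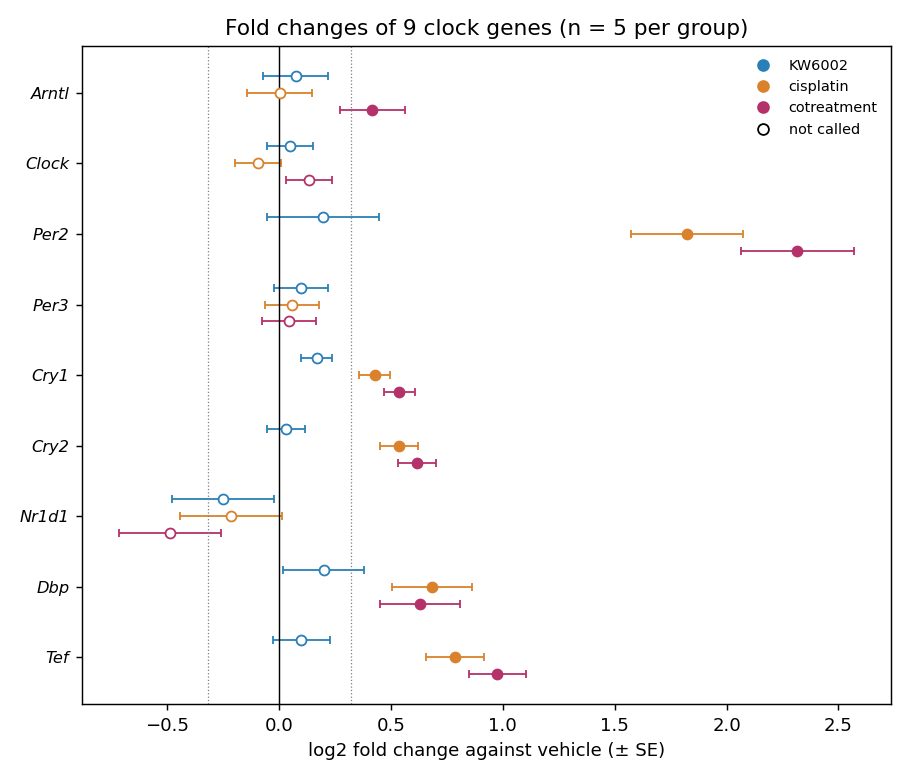
Log2 fold changes (± SE) of the 9 members tested in KW6002, cisplatin and cotreated tumors against vehicle (n = 5 per group), with filled points for called changes and dotted lines at the fold limit of 0.32. Per2 stands farthest from 0 in both cisplatin arms (1.82 and 2.32), and no point of KW6002 alone is filled.

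In the positive arm, Arntl was called after cotreatment alone and Clock in neither arm. Arntl (ENSMUSG00000055116, GRCm38 chromosome 7, 113207465 to 113314126, plus strand), the partner that CLOCK and NPAS2 need to bind DNA, had 26.6, 35.3, 33.0, 38.9 and 34.2 CPM in vehicle replicates 1 to 5 and 32.5, 31.6, 30.3, 37.3 and 45.4 CPM with KW6002. It had 35.2, 30.4, 35.6, 27.3 and 39.8 CPM with cisplatin and 48.5, 46.2, 54.7, 29.8 and 45.2 CPM with cotreatment. Of the cotreated tumors, 4 lay above every vehicle tumor and replicate 4 lay among them. Arntl was higher after cotreatment than after vehicle (log2 fold change 0.42 ± 0.14 SE, adjusted P = 0.0294, edgeR) and its change after cisplatin was 0.00 ± 0.14 (adjusted P = 0.995). The call after cotreatment was lost in the later code run alone (0.11, adjusted P = 0.75), with no filter on low counts (0.43, adjusted P = 0.0605), and on leaving out cotreated replicate 1 (0.39), cotreated replicate 3 (0.35) or vehicle replicate 1 (0.36), with adjusted P up to 0.0765. With separate terms for the code run in tumors with and without cisplatin, where the change refers to the earlier run and vehicle and KW6002 tumors share a run term, it was 0.73 (adjusted P = 0.00804). The 3 cotreated tumors of the earlier run ranged from 46.2 to 54.7 CPM and the 2 of the later run were at 29.8 and 45.2 CPM.

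Clock (ENSMUSG00000029238, chromosome 5, 76209868 to 76304792, minus strand), the DNA-binding partner with histone acetyltransferase activity, averaged 69.3 ± 7.03 CPM in vehicle, 71.7 ± 7.37 with KW6002, 65.0 ± 9.83 with cisplatin and 76.1 ± 9.82 with cotreatment (SD, n = 5). Its log2 changes against vehicle were -0.09 ± 0.10 after cisplatin (adjusted P = 0.57) and 0.13 ± 0.10 after cotreatment (adjusted P = 0.328), and the groups overlapped. With separate run terms Clock was called higher after cotreatment (0.37, adjusted P = 0.0105, edgeR), and in the later run alone its change was -0.047 (adjusted P = 0.806). Npas2 (ENSMUSG00000026077, chromosome 1, 39193731 to 39363236, plus strand), which can stand in for CLOCK, had between 0 and 6 reads in every tumor. A floor of 3 reads corresponds to 0.0734 to 0.108 CPM at these depths, so no difference in Npas2 was detectable and it was not tested.

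Per2 showed the widest change of all members. PER2 (ENSMUSG00000055866, chromosome 1, 91415982 to 91459324, minus strand) is a core repressor of the loop whose gene also responds to glucocorticoids. Per2 had 8.05, 10.4, 10.5, 5.75 and 9.82 CPM in vehicle tumors and 8.30, 10.3, 13.4, 9.51 and 9.47 CPM with KW6002. It had 16.6, 22.8, 26.5, 46.6 and 44.8 CPM with cisplatin and 38.2, 52.4, 41.3, 37.2 and 52.3 CPM with cotreatment. Every tumor given cisplatin lay above every tumor that was not, and the share of all genes separated in this way is not given here. The cisplatin group alone was spread widely while the cotreated group was not. The fold change against vehicle was 3.54 after cisplatin (log2 1.82 ± 0.25, adjusted P = 0.000108) and 4.98 after cotreatment (2.32 ± 0.25, adjusted P = 2.43e-06, edgeR). In contrast, Per3 (ENSMUSG00000028957, chromosome 4, 151003652 to 151044665, minus strand), a period gene with a lesser role in the loop, had group means between 14.9 and 15.9 CPM. Its log2 changes were 0.06 ± 0.12 after cisplatin (adjusted P = 0.793) and 0.04 ± 0.12 after cotreatment (adjusted P = 0.817).

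Both cryptochromes, the direct repressors of ARNTL and CLOCK, rose in both cisplatin arms. Cry1 (ENSMUSG00000020038, chromosome 10, 85131700 to 85185064, minus strand) had 25.8, 24.9, 25.4, 24.7 and 26.5 CPM in vehicle and 28.3, 30.0, 27.2, 28.6 and 29.3 CPM in KW6002 tumors. It had 28.6, 39.0, 37.5, 32.4 and 33.9 CPM in cisplatin and 37.4, 34.8, 40.4, 37.3 and 35.1 CPM in cotreated tumors. Vehicle tumors formed the tightest group, and each of the other groups lay wholly above it. Cry1 was 1.35-fold higher after cisplatin (log2 0.43 ± 0.07, adjusted P = 0.000308) and 1.45-fold higher after cotreatment (0.54 ± 0.07, adjusted P = 6.87e-06).

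Cry2 (ENSMUSG00000068742, chromosome 2, 92403646 to 92434043, minus strand) had 54.2, 45.9, 47.0, 43.4 and 47.5 CPM in vehicle and 49.5, 51.5, 46.7, 53.2 and 42.2 CPM in KW6002 tumors. It had 65.9, 63.5, 60.1, 70.3 and 85.1 CPM in cisplatin and 63.9, 75.7, 73.4, 73.7 and 78.6 CPM in cotreated tumors. As for Per2, no tumor given cisplatin overlapped any tumor that was not, with the share of all genes again not given. Cry2 was 1.45-fold higher after cisplatin (log2 0.53 ± 0.09, adjusted P = 0.000292) and 1.53-fold higher after cotreatment (0.62 ± 0.09, adjusted P = 1.64e-05). An exon of the antisense gene D930015M05Rik overlaps Cry2 on the opposite strand, and the strand option of the counting is not stated.

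**Figure D2:**
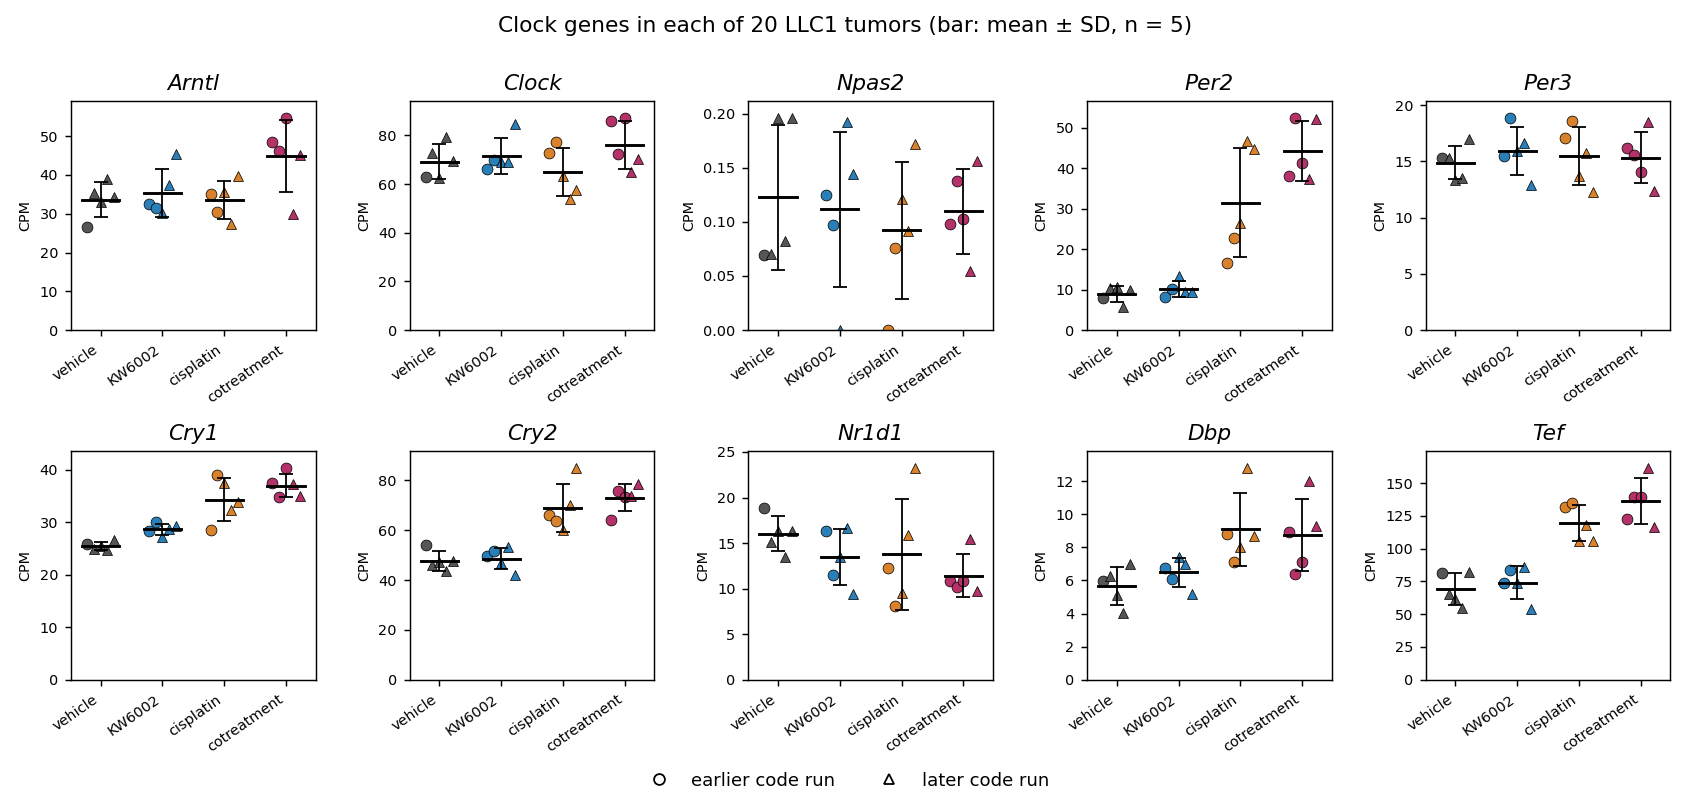
CPM of the 10 members in each of the 20 tumors by group, with circles for the earlier and triangles for the later code run and bars for the mean ± SD (n = 5). Per2, Cry2 and Tef separate the tumors given cisplatin from the others (share of all genes not given). Per3 does not differ visibly between groups, and Npas2 stays below 0.2 CPM.

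Nr1d1 (ENSMUSG00000020889, chromosome 11, 98767932 to 98775333, minus strand), the heme-binding repressor of Arntl, had 18.8, 15.2, 16.4, 13.5 and 16.4 CPM in vehicle and 16.3, 11.5, 13.5, 16.7 and 9.44 CPM in KW6002 tumors. It had 12.3, 8.05, 9.47, 15.9 and 23.3 CPM in cisplatin and 10.9, 10.2, 10.8, 15.5 and 9.73 CPM in cotreated tumors. The cisplatin group spanned the whole range of the 20 tumors, and 4 of 5 cotreated tumors lay below all vehicle tumors. Log2 differences from vehicle were -0.22 ± 0.23 after cisplatin (adjusted P = 0.55) and -0.49 ± 0.23 after cotreatment (unadjusted P = 0.0461, adjusted P = 0.105), neither of which passed the test. Without cisplatin replicate 5 Nr1d1 was called lower after cotreatment (-0.48, adjusted P = 0.045), as it was with separate terms for the code run (-0.80, adjusted P = 0.0473). Over 9 settings of the processing its difference after cotreatment ran from -0.80 to -0.26, with adjusted P up to 0.645 (edgeR or DESeq2). Nr1d1 shares exon sequence with Thra on the opposite strand.

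The PAR bZIP factors are outputs of the clock that carry its rhythm to D-box genes. Tef (ENSMUSG00000022389, chromosome 15, 81802421 to 81826863, plus strand) had 81.3, 65.7, 61.9, 54.8 and 82.5 CPM in vehicle and 73.6, 83.5, 73.7, 85.8 and 54.0 CPM in KW6002 tumors. It had 132, 135, 106, 118 and 106 CPM in cisplatin and 123, 140, 139, 162 and 117 CPM in cotreated tumors. Again the tumors given cisplatin lay wholly above the others, and here too the share of all genes is not given. Tef rose 1.73-fold after cisplatin (log2 0.79 ± 0.13, adjusted P = 0.000406) and 1.97-fold after cotreatment (0.98 ± 0.13, adjusted P = 1.24e-05).

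Dbp (ENSMUSG00000059824, chromosome 7, 45705088 to 45710203, plus strand), in many tissues among the clock outputs of widest amplitude, was the lowest of the called members in CPM. It had 5.94, 6.26, 5.09, 4.02 and 6.98 CPM in vehicle and 6.78, 6.06, 7.41, 7.01 and 5.17 CPM in KW6002 tumors. It had 8.83, 7.11, 8.02, 12.8 and 8.67 CPM in cisplatin and 8.95, 6.36, 7.13, 12.0 and 9.27 CPM in cotreated tumors. Every cisplatin tumor exceeded every vehicle tumor, whereas cotreated replicate 2 fell among the vehicle tumors. Dbp was 1.61-fold higher after cisplatin (log2 0.68 ± 0.18, adjusted P = 0.0125) and 1.55-fold higher after cotreatment (0.63 ± 0.18, adjusted P = 0.00908). With the separate run terms, Dbp was no longer called (0.42 and 0.43, adjusted P = 0.309 and 0.163), nor was Cry2 after cisplatin (0.34, adjusted P = 0.079). In the later run alone both were called, at 0.83 and 0.66 after cisplatin. Dbp overlaps exons of Sphk2, Tef those of Gm17597 and Arntl those of Gm45355, on the opposite strand.

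The effect of KW6002 alone on the clock was not detectable. With KW6002, 0 of 9 members were called in edgeR, 0 in DESeq2 and 1 had an unadjusted P under 0.05, and 0% of all genes were called. That member was Cry1 (log2 0.17 ± 0.07, unadjusted P = 0.0236, adjusted P = 1), whose KW6002 tumors all lay above the vehicle tumors. Such separation occurred in 0.342% of all genes. The 9 log2 differences ran from -0.25 ± 0.23 for Nr1d1 to 0.20 for Per2 (SE 0.25) and Dbp (SE 0.18).

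The question of what KW6002 added to cisplatin was addressed by comparing cotreatment with cisplatin. No member was called in edgeR (4% of all genes were, 2.29% higher and 1.71% lower), 1 was called in DESeq2, 0 did not overlap between the groups (4.83% of all genes), and 2 had an unadjusted P under 0.05, as did 3883 of the 16665 genes, a like share. Arntl differed by 0.41 ± 0.14 on the log2 scale (adjusted P = 0.0882 in edgeR, 0.0392 in DESeq2), and Clock by 0.23 ± 0.10 (adjusted P = 0.183 in edgeR). Without cotreated replicate 4 Arntl was called in edgeR (0.53, adjusted P = 0.00972). Over 9 settings of the processing the Arntl difference ran from 0.13 to 0.43, with adjusted P up to 0.798 (edgeR or DESeq2). The difference for Per2 was 0.49 ± 0.24 (adjusted P = 0.22). Cotreatment against KW6002 called 4 members, all higher (Per2 2.12 ± 0.25, Cry1 0.37 ± 0.07, Cry2 0.59 ± 0.09 and Tef 0.88 ± 0.13 on the log2 scale, adjusted P from 5.9e-06 to 0.000327, 23.3% of all genes called, 12.6% higher). DESeq2 called 6, adding Arntl (0.35) and Dbp (0.44). In edgeR, Arntl was also called with separate run terms (0.59, adjusted P = 0.0118) and Dbp with the code run as a term (0.46, adjusted P = 0.043), whereas in the later run alone neither was (0.01 and 0.71). Over 9 settings of the processing the Dbp difference ran from 0.24 to 0.71, with adjusted P up to 0.401 (edgeR or DESeq2). The same 4 did not overlap between these groups, as did 24.9% of all genes. For the interaction, which sets the KW6002 effect under cisplatin against that in its absence, 0 of 9 members were called in edgeR, 0 in DESeq2 and 0 had an unadjusted P under 0.05 (0.066% of all genes called, 0.036% higher and 0.03% lower). Its values ran from -0.25 ± 0.25 for Dbp to 0.34 ± 0.20 for Arntl.

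The balance of the clock arms was then described per tumor as a difference of log2 CPM between genes, with no test. The mean of Arntl and Clock minus that of the 7 other members was 1.32 ± 0.30 in vehicle, 1.30 ± 0.32 with KW6002, 0.72 ± 0.31 with cisplatin and 0.93 ± 0.34 with cotreatment (SD, n = 5). With Npas2 included these means were -1.38, -1.47, -2.07 and -1.88, but Npas2 adds mainly counting error. Without Npas2, the later run had means of 1.40 in vehicle (n = 4), 0.57 with cisplatin (n = 3) and 0.65 with cotreatment (n = 2). KW6002 tumors of that run averaged 1.39 (n = 3). In the earlier run the single vehicle tumor was at 0.99, KW6002 at 1.17 (n = 2), cisplatin at 0.93 (n = 2) and cotreatment at 1.11 (n = 3). In the earlier run the tumors given cisplatin thus averaged below those given KW6002 alone, and cotreated tumors above the vehicle tumor. Single pairs differed in how they took part. Arntl minus Per2 went from 1.93 ± 0.46 in vehicle and 1.79 ± 0.41 with KW6002 to 0.20 ± 0.70 with cisplatin and 0.01 ± 0.34 with cotreatment. Arntl minus Nr1d1 had means of 1.06 ± 0.37, 1.41 ± 0.51, 1.38 ± 0.57 and 1.96 ± 0.57, and in the later run that of cisplatin (1.15) was not above that of vehicle, while Arntl minus Per3 stayed between 1.12 and 1.53. With Npas2 included, the arms of cisplatin and vehicle differed by -0.69 in all tumors, by -0.78 in the later run and by -0.32 in the earlier run, which holds 1 vehicle tumor.

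If tumors of a group were collected at different phases, genes of opposite phase would deviate oppositely from tumor to tumor. Pearson r was computed for the 45 pairs of members over log2 CPM centered on group means in 20 tumors, with a two-sided permutation test within groups and adjustment over the 45 pairs. By r, 1 of 45 pairs had an adjusted P under 0.05 (10 of 36 when Npas2 was left out, and 1 to 5 of 45 when a tumor was). This was Per3 and Tef (r = 0.82, Spearman rho = 0.83, unadjusted P = 5e-05 and 3e-05, adjusted P = 0.00225 and 0.00135). Tumors with more Per3 than their group had more Tef. The correlation was 0.79 without the 2 tumors farthest in Per3, 0.89 in the later run (n = 12) and 0.25 in the earlier run (n = 7, because the single vehicle tumor of that run has no deviation from its mean and was left out). Centered on group and run, r was 0.82 with an adjusted permutation P of 0.11. Another 9 pairs shared an adjusted permutation P of 0.0555 by r. By rho, 3 of these 9 had an adjusted permutation P under 0.05, Clock with Nr1d1 (0.0345), Clock with Cry2 (0.0345) and Nr1d1 with Dbp (0.046).

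**Figure D3:**
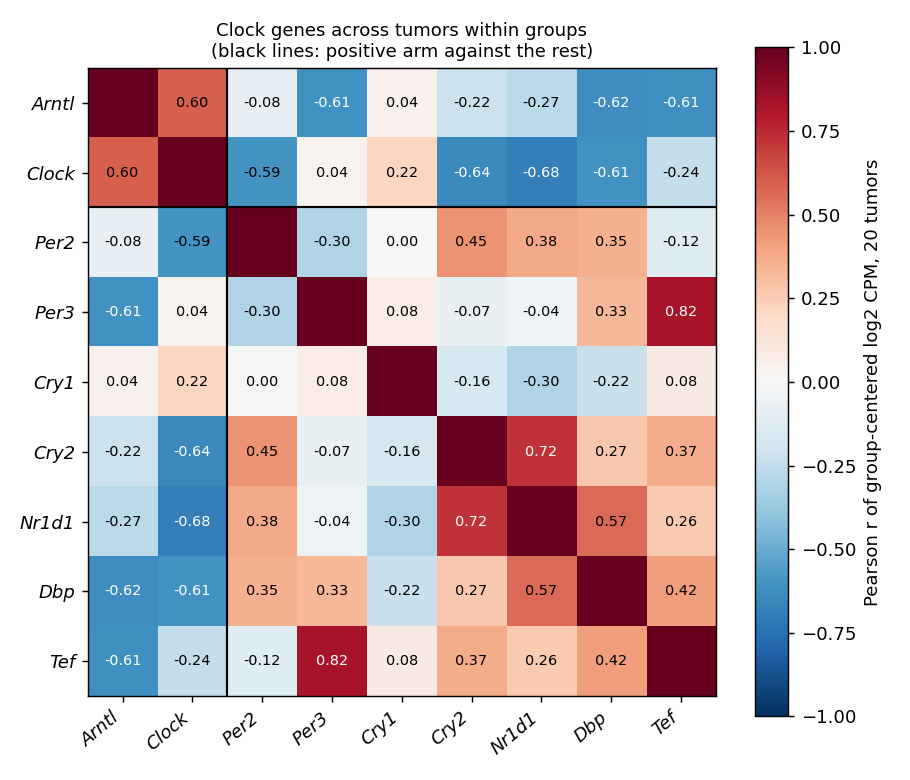
Pearson r between 9 members over log2 CPM centered on group means in 20 tumors, with black lines between Arntl and Clock and the other members. Blue cells (negative r) prevail between the arms, where 11 of 14 pairs are negative, all of which share Arntl or Clock.

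Between the arms, 11 of 14 pairs (Arntl or Clock with each of the 7 others) had a negative r, with a median of -0.43. These pairs reuse Arntl, Clock and the same 7 partners, so they are not 14 separate observations. The share of negative r for Arntl or Clock over all genes is not given here. Arntl correlated negatively with Dbp (r = -0.62, rho = -0.53, unadjusted P = 0.00918), Tef (r = -0.61, rho = -0.58, P = 0.00745) and Per3 (r = -0.61, rho = -0.54, P = 0.012), each with an adjusted permutation P of 0.0555. Clock did so with Nr1d1 (r = -0.68, rho = -0.72, P = 0.00518), Cry2 (r = -0.64, rho = -0.70, P = 0.0074) and Dbp (r = -0.61, rho = -0.52, P = 0.0123), at the same adjusted permutation P. Arntl and Clock deviated together (r = 0.60, rho = 0.55, adjusted permutation P = 0.0555). Without the 2 tumors farthest in the first gene, r was -0.52 for Arntl and Dbp, -0.49 for Arntl and Tef, -0.55 for Arntl and Per3, -0.54 for Clock and Nr1d1, -0.56 for Clock and Cry2 and 0.50 for Arntl and Clock. The pair that the loop links most directly, Arntl and Nr1d1, gave r = -0.27 (rho = -0.31, permutation P = 0.254, adjusted P = 0.519), and -0.05 without those 2 tumors. Among the 21 pairs of the other members 14 were positive and 7 negative in all tumors, whereas 12 were negative in the earlier run and 4 in the later, and 10 in tumors given cisplatin and 2 in those not given it. In all tumors, Cry2 and Nr1d1 (r = 0.72) and Nr1d1 and Dbp (r = 0.57) came next after Per3 and Tef.

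**Figure D4:**
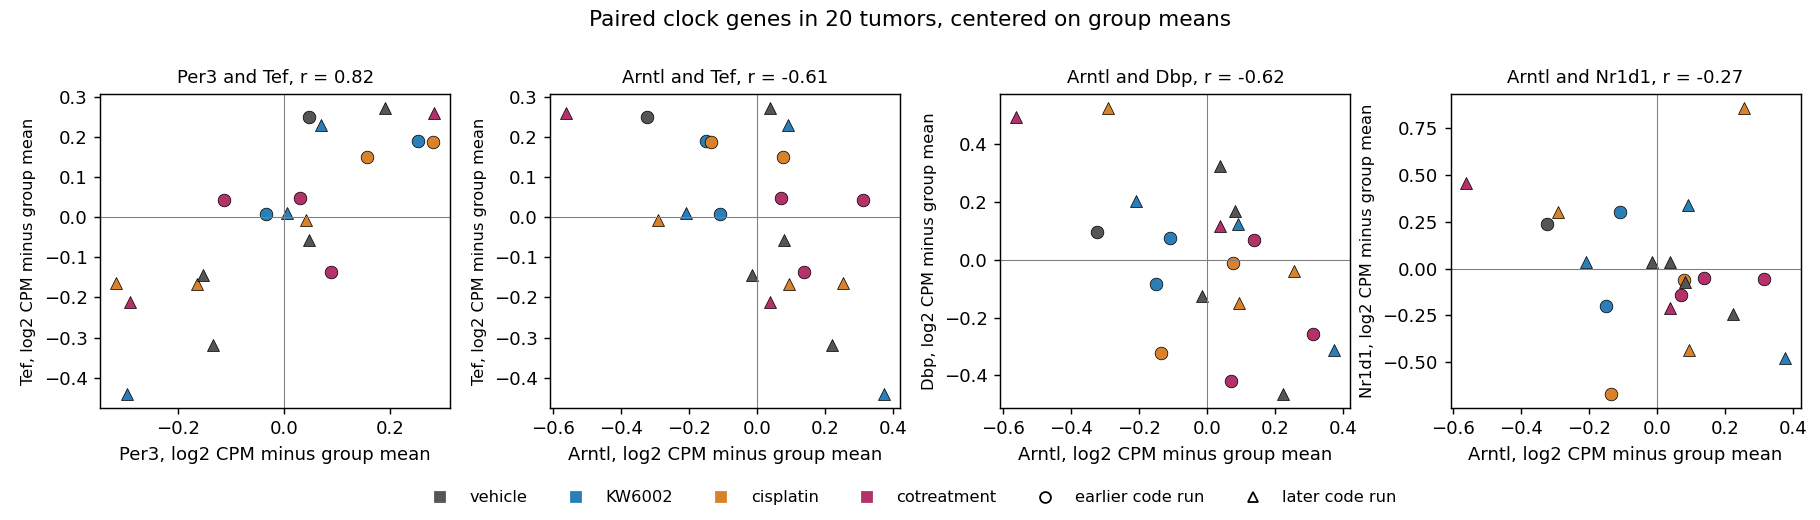
Log2 CPM minus the group mean for 4 pairs of members in 20 tumors, colored by group, with circles for the earlier and triangles for the later code run. Per3 and Tef rise together (r = 0.82), Arntl runs against Tef (r = -0.61) and Dbp (r = -0.62), and Arntl and Nr1d1 are scattered (r = -0.27).

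Within the later run, 11 of the 14 pairs were negative with a median r of -0.58 (n = 12), for example -0.76 for Arntl and Dbp and -0.81 for Arntl and Per3. In the earlier run, 8 of 14 were negative with a median of -0.07 (n = 7), and Arntl and Dbp gave 0.41. In tumors not given cisplatin 13 of the 14 pairs were negative and in tumors given cisplatin 8 were (n = 10 each). These subsets are small, and the differences between them were not tested.

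The code runs were next compared directly, with the run as a term beside the groups. In that model 0 of 9 members were called in edgeR and 0 in DESeq2 (0.006% of all genes), and only Per2 had an unadjusted P under 0.05 (log2 0.37 ± 0.17, adjusted P = 0.364). Among tumors given cisplatin, 7.29% of all genes were called between runs (4.65% higher and 2.64% lower in the later) and again 0 members in edgeR and 0 in DESeq2, with 3 at an unadjusted P under 0.05 (Clock, Per2 and Dbp), as were 5350 of the 16665 genes, a like share. The nearest was Clock, which was lower in the later run by a log2 difference of -0.318 ± 0.07 (adjusted P = 0.0124), just within the fold limit of 0.32. Its 5 tumors of the earlier run had 72.7 and 77.2 (cisplatin) and 85.8, 72.2 and 87.2 CPM (cotreatment), and the 5 of the later run had 63.2, 54.0 and 57.6 (cisplatin) and 65.2 and 70.2 CPM (cotreatment). The 2 runs did not overlap, and the share of all genes without such overlap is not given here. Per2 was 0.50 ± 0.23 higher (adjusted P = 0.148) and Dbp 0.41 ± 0.16 higher (adjusted P = 0.0894) in the later run. With 1 tumor left out, Per2 ran from 0.31 to 0.72 (adjusted P up to 0.442, edgeR) and was called without cotreated replicate 4. Among tumors not given cisplatin, Clock was 0.14 ± 0.08 higher in the later run (adjusted P = 0.939), 0 members were called in edgeR and 0 in DESeq2, 0 had an unadjusted P under 0.05, and 0% of all genes were called. The difference between the 2 run terms was called for Clock alone (-0.46 ± 0.11, adjusted P = 0.0441, 1.81% of all genes, 1.01% lower). Macrophage markers moved with the run in tumors given cisplatin (4 of 7 higher in the later run), as did neutrophil markers (3 of 5 higher) and fibroblast markers (2 of 7 higher), and their part in these results was not tested.

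As a description, the genes whose log2 CPM, centered on group means, followed a member most closely over 20 tumors were listed among 12739 genes with a mean of at least 50 counts. All points share libraries and depth. For Nr1d1 these were Eno1 (r = 0.89), Ppp1r15a (0.88), Ier3 (0.88), Aldoa (0.88) and Pdlim1 (0.87), and at the other end Med22 (-0.90), Thap6 (-0.88), Nfatc2ip (-0.87), Gm43268 (-0.86) and Mars2 (-0.85). Those of Arntl were Vapa (0.85), Ap3s1 (0.83), Dnajb4 (0.81), Phtf1 (0.81) and Acsl4 (0.80), against Usb1 (-0.82), Tyms (-0.75), Cox5a (-0.74), Ccnf (-0.73) and Slc39a1 (-0.73). Those of Dbp were Aurkaip1 (0.84), Atp6v0b (0.83), Grpel1 (0.82), Bst2 (0.81) and 1810037I17Rik (0.81), against Mapk14 (-0.89), Zc3h12c (-0.87), Wtap (-0.84), Stau1 (-0.81) and Ube2r2 (-0.81). No other member stood among these 30 genes. Of the other clock genes, Bhlhe40 (r = 0.86) ranked 8 and Ciart (r = 0.85) 11 from the highest for Nr1d1, and of the members Dbp ranked 94 from the lowest for Arntl.

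Of 25 further genes of the clock pathway, 24 were tested. After cisplatin 2 were higher and 0 lower, where 6.01% and 4.57% of all genes were. After cotreatment 4 were higher and 2 lower, where 13.1% and 10.4% of all genes were, so that these counts lie near the share over all genes. Per1, the period gene that responds fastest to glucocorticoids and stress signals, averaged 73.0 ± 29.4 CPM in vehicle, 77.0 ± 27.1 with KW6002, 144 ± 43.3 with cisplatin and 182 ± 39.3 with cotreatment (SD, n = 5), with log2 changes against vehicle of 0.98 ± 0.29 after cisplatin (adjusted P = 0.0273) and 1.32 ± 0.29 after cotreatment (adjusted P = 0.00179). Hlf, the remaining PAR bZIP factor, was low throughout at 0.190 ± 0.0727 CPM in vehicle, 0.955 ± 0.380 with cisplatin and 1.00 ± 0.134 with cotreatment, log2 changes of 2.32 ± 0.35 and 2.39 ± 0.35. Hlf had 4 to 9 reads per tumor in vehicle and 2 to 12 with KW6002, against 13 to 48 with cisplatin and 25 to 44 with cotreatment, so it passed the filter on low counts through the groups where it is high, and its fold is imprecise. After cotreatment the deubiquitinase gene Usp2 (0.81 ± 0.15) and Wee1, a clock-controlled kinase that delays mitosis (0.63 ± 0.15), rose too. Noct (-0.59 ± 0.16) and Nampt, which makes NAD (-0.35 ± 0.13), fell. Against KW6002, cotreatment raised 3 (Per1, Hlf and Wee1) and lowered 1 (Noct), where 12.6% of all genes were higher and 10.7% lower. Against cisplatin it changed 0 in edgeR, with 4 at an unadjusted P under 0.05 (3883 of the 16665 genes), and KW6002 alone changed 0, with 1 (339 of the 16665 genes). Between runs in tumors given cisplatin, Rora (0.73 ± 0.21) and Noct (0.44 ± 0.12) were higher and Arntl2, a paralog of Arntl (-0.34 ± 0.07), was lower in the later run. Of all genes, 4.65% were higher and 2.64% lower there.

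**Figure D5:**
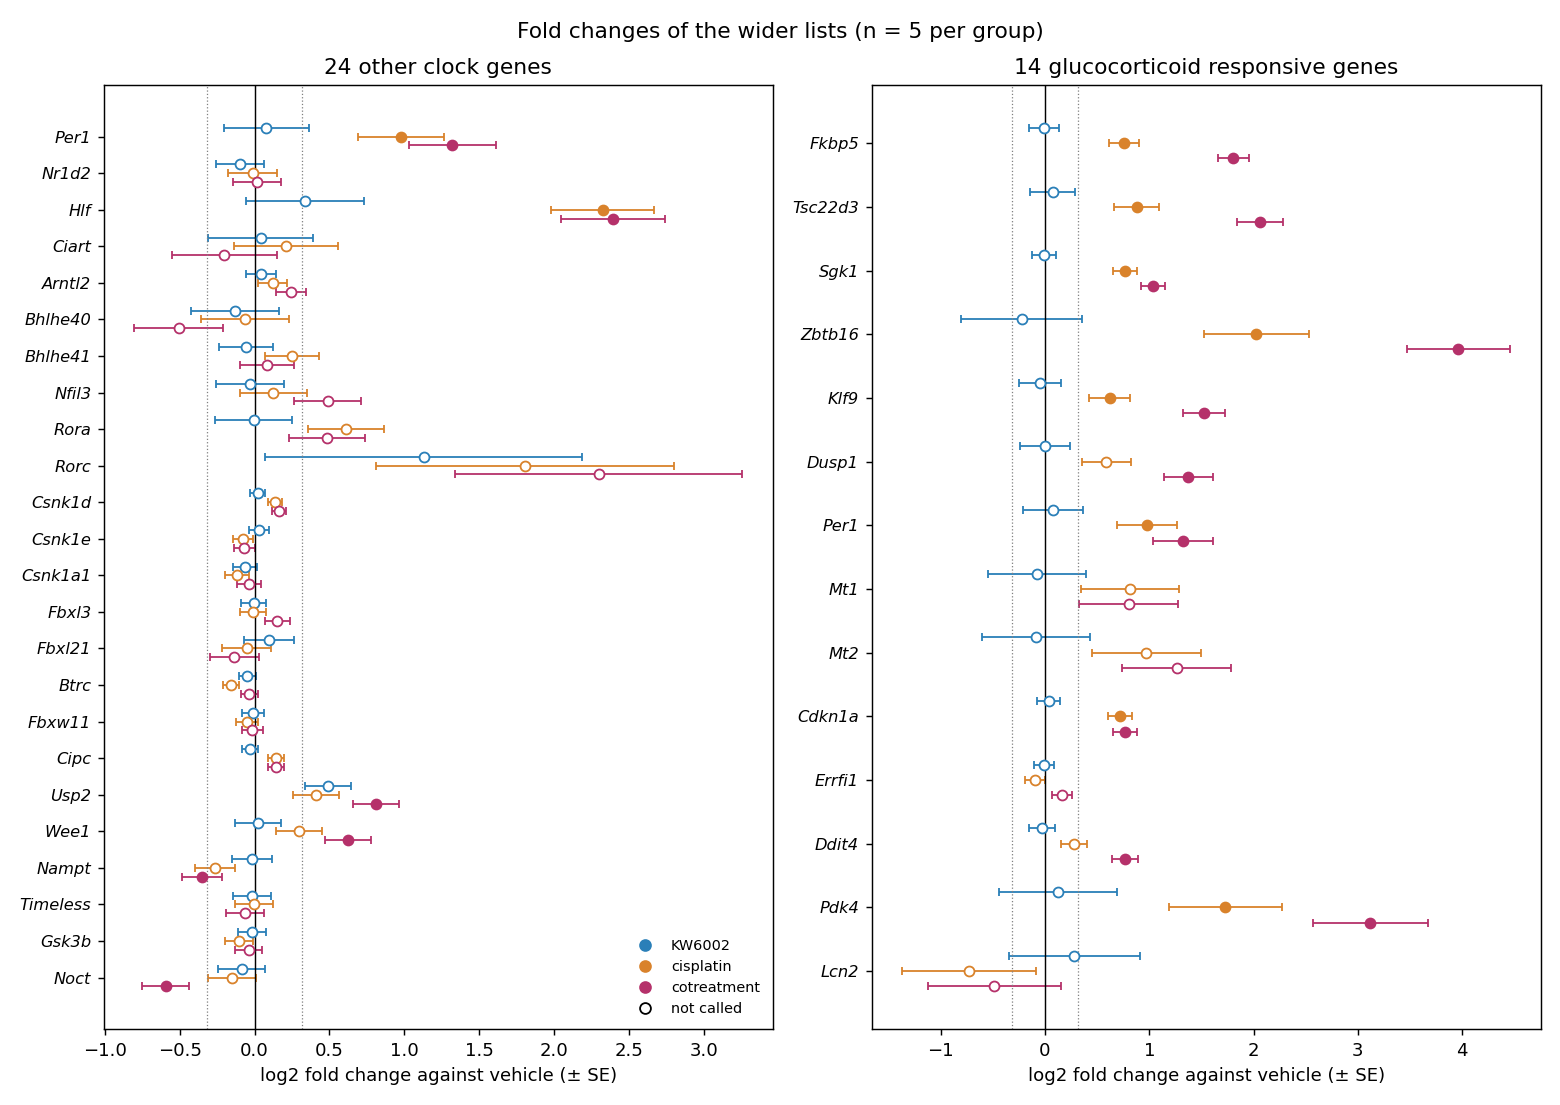
Log2 fold changes (± SE) of 24 other clock genes and 14 glucocorticoid responsive genes against vehicle (n = 5 per group), with filled points for called changes and dotted lines at the fold limit of 0.32. Per1 and Hlf are called in both cisplatin arms, and Fkbp5, Tsc22d3, Zbtb16 and Klf9 lie farther from 0 after cotreatment than after cisplatin.

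Because glucocorticoids act on period genes, 14 genes known to respond to them were counted as well. After cisplatin 8 were higher (6.01% of all genes) and after cotreatment 10 (13.1%), 0 were lower in either, and 0 changed with KW6002 in edgeR, with 0 at an unadjusted P under 0.05. Fkbp5, a chaperone of the glucocorticoid receptor, rose by 0.76 ± 0.15 after cisplatin and 1.81 ± 0.15 after cotreatment on the log2 scale. Tsc22d3, a mediator of glucocorticoid action in leukocytes, rose by 0.88 ± 0.22 and 2.06 ± 0.22. Cotreatment exceeded cisplatin in 5 of the 14 (2.29% of all genes were higher), Fkbp5 (1.05 ± 0.15), Tsc22d3 (1.18 ± 0.21), Zbtb16 (1.94 ± 0.43), Klf9 (0.90 ± 0.20) and Ddit4 (0.48 ± 0.12). For the interaction 0 were called in edgeR, and 6 had an unadjusted P under 0.05, as did 2034 of the 16665 genes. Zbtb16 had 4 to 24 reads per tumor in vehicle and 4 to 16 with KW6002, against 23 to 84 with cisplatin and 106 to 279 with cotreatment, so that it too passed the filter through the groups where it is high. Per1 is in both lists, and Cdkn1a of this list is also a target of p53. The part of glucocorticoid signals in the changes of the clock genes was not tested.

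Some cell markers moved with cisplatin as well. Of all genes, 6.01% were called higher and 4.57% lower after cisplatin, and 13.1% higher and 10.4% lower after cotreatment. The sum of 6 endothelial markers was 133 to 197 CPM in vehicle, 65.1 to 92.7 CPM in cisplatin and 70.6 to 106 CPM in cotreated tumors, with 6 and 4 of 6 markers called lower. Neutrophil markers summed to 44.7 to 120 CPM in vehicle, 13.6 to 67.3 CPM in cisplatin and 13.6 to 32.3 CPM in cotreated tumors, with 2 and 4 of 5 called lower. Red blood cell markers were at most 0.110 CPM in all tumors given cisplatin, against 25.9 to 117 CPM in vehicle, and all 5 were called lower in both arms, having passed the filter on low counts through the groups not given cisplatin. Of 7 fibroblast markers 3 were lower after cisplatin and 2 after cotreatment, of 7 macrophage markers 1 was higher after cisplatin and 2 were higher and 1 lower after cotreatment, and of 4 markers of proliferating cells 2 were lower after cotreatment. Of 3 lung epithelium markers tested, 1 was higher in both arms. Skeletal muscle markers summed to 4.49 to 1098 CPM over all tumors, highest in cotreated replicate 4 and at most 261 CPM in any other, with 1 of 8 higher after cotreatment. No marker of fat, skin epidermis, T and NK cells or B cells was called in edgeR in either arm against vehicle. In cotreatment against KW6002, where 12.6% of all genes were higher and 10.7% lower, 5 of 6 markers of T and NK cells and 1 of 2 of B cells were lower. So were 5 of 5 red blood cell, 4 of 5 neutrophil and 4 of 6 endothelial markers. Of 7 fibroblast markers 1 was higher and 2 lower, and of 7 macrophage markers 1 was higher and 1 lower. Of 4 markers of proliferating cells 1 was lower, and of 3 lung epithelium markers 1 was higher. KW6002 replicate 1 stood apart, with 44.1 CPM of B cell markers against at most 1.49 CPM in any other tumor and 24.3 CPM of T and NK cell markers against at most 9.41 CPM. The part of these cells in the results was not tested.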

How the data were processed

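Raw counts per Ensembl gene, whole numbers of reads in 1 library per tumor, were used as deposited. The authors prepared stranded poly(A) libraries, aligned reads to mm10 with STAR and counted them with HTSeq 0.6.1p1 after bcl2fastq 2.17.1.14, as the processing notes name these tools. The strand option is not given in the sources used here. The reads carried no molecular identifiers, so floors cover counting error only.

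Counts were scaled by TMM and tested in edgeR 4.0.16 (R 4.3.3) with filterByExpr by group and robust quasi-likelihood fits of 4 group means to 20 tumors. Tests were two-sided. DESeq2 1.42.0, relative log expression (RLE) scaling, other filters, run terms and leaving out each tumor were alternatives. CPM used TMM library sizes, log2 CPM a prior count of 2, and RPKM the summed exon length in GENCODE vM21. Correlations used 100000 permutations, or 20000 with a tumor left out. SE was derived from the F statistic. The edgeR and correlation scripts were tested on simulated data. Groups and replicate numbers came from the sample titles, and the title of vehicle replicate 1 differs in form from the others.

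The members and gene lists were chosen with earlier results of these data known. Named genes were the members, other clock genes called in a comparison, and the 5 nearest genes at either end for Arntl, Nr1d1 and Dbp. Glucocorticoid responsive genes were counted as a list, of which Fkbp5, Tsc22d3 and those higher in cotreatment than in cisplatin were named after their values were seen. Markers of other cell types were counted in the same fits.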

Additional observations from a re-analysis of the deposited data

Results flagged for a closer look

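In groups of 5, a tumor was marked where its gap to the nearest other tumor took up more of the range of its group than the critical value of Dixon's test at the 5% level. Of 76 sets of values, 11 were marked, and chance marks about 5% of sets. The sets are not independent, since the differences share Arntl and reuse the levels of the members. Clock in KW6002 replicate 5 was 84.7 CPM, above 66.1 to 70.0 CPM in the other 4 tumors, and in that tumor Arntl minus Cry2 was 0.11, Arntl minus Tef was -0.25, and the arms without Npas2 differed by 1.87, the highest of its group in each case. Nr1d1 in cotreated replicate 4 was 15.5 CPM, above 9.73 to 10.9 CPM in the others. The same tumor was lowest of its group in Arntl minus Cry1 (-0.32), Arntl minus Nr1d1 (0.94), Arntl minus Tef (-2.44) and the balance of the arms with Npas2 (-2.50). This tumor held 1098 CPM of skeletal muscle markers, against at most 261 CPM in any other tumor, and KW6002 replicate 5 held 243 CPM, the most of its group. The part of muscle in these values was not tested. Cotreated replicate 4 was also the tumor without which Arntl was called between cotreatment and cisplatin. Arntl minus Dbp was 1.09 in cisplatin replicate 4, below 1.99 to 2.19 in the others, and Arntl minus Per2 was 2.74 in vehicle replicate 4, above 1.64 to 1.79. All differences are of log2 CPM.

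The difference in Clock between the code runs itself differed between tumors given and not given cisplatin (-0.46 on the log2 scale, adjusted P = 0.0441 in edgeR), with the later run lower among the former and higher among the latter. The earlier run holds 3 tumors not given cisplatin.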

How the results depend on the processing

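Members called were 5 after cisplatin in every alternative except separate run terms, which gave 3. Leaving out each tumor in turn gave 5 throughout after cisplatin, 5 to 7 after cotreatment against vehicle, 4 to 5 against KW6002 and 0 to 1 against cisplatin, where DESeq2 also gave 1. Between runs in tumors given cisplatin the count was 0, and 1 with no filter on low counts or no fold limit, and 0 to 2 when a tumor was left out. The members called there were Clock, Dbp, Per2 and Per3. Among changes of a member that were called in at least 1 fit, 1 changed direction in an alternative, Clock after cotreatment, which was -0.047 in the later run alone. Changes never called were not followed. Correlated pairs were 1 of 45, 0 after centering on group and run, 10 of 36 without Npas2 (an alternative chosen after seeing the data, which shortens the adjustment), and 1 to 5 when a tumor was left out. The balance of the arms (cisplatin minus vehicle, with Npas2) was -0.69, and -0.32 in the earlier run. Without Npas2 the earlier run had 0.93 with cisplatin and 0.99 in its vehicle tumor. Tumors with the same replicate number had r from -0.39 to 0.39 over 30 pairs (median -0.03, 12 above 0.1). Those with different numbers had r from -0.44 to 0.47 over 120 pairs (median 0.01, 39 above 0.1). Only 3 of 20 tumors were closest to a tumor of their own number, so no pairing by number was visible. With a replicate block, 5 members were called after cisplatin, 6 after cotreatment and 4 against KW6002. It gave 0 for KW6002 alone, cotreatment against cisplatin and the interaction. In these comparisons the replicate block moved no count of members. Comparisons of the code runs, among them the difference of run terms called for Clock, were not fitted with a block. Counts over all genes moved by over 1.5 times in several fits. The later run alone called 2743 genes after cisplatin (1762 in all tumors), 2209 after cotreatment (3914), 1654 against KW6002 (3884) and 1 against cisplatin (667), and separate run terms called 1104 after cisplatin. Without the fold limit these 4 counts were 2752, 5906, 5837 and 1086, and 2519 between runs in tumors given cisplatin (1215). The interaction had 11 genes, 0 to 39 in the other edgeR fits of whole groups or runs, 0 to 229 when a tumor was left out, and 258 in DESeq2. DESeq2 called 11 genes for the run term (1 in edgeR, 2 with no filter) and 5 in tumors not given cisplatin (0 in edgeR). No fold change of Npas2 can be given at 0 to 6 reads.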
